A study of Homo sapiens with 6 samples.

Results

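The genes described here are the hypoxia-inducible factor (HIF) pathway, a set of its transcriptional targets, and the enzymes of glycolysis, in Du145 cells held at low oxygen. They were chosen by gene symbol and comprise 45 genes: 8 of the HIF machinery, 19 hypoxia targets and 18 of glycolysis and lactate export. Of these, 41 had a value of their own among the 18417 genes measured, namely 7 machinery genes, 18 targets and 16 glycolytic genes. The probe set of EGLN2 is annotated to a readthrough gene as well, the 5 probe sets of PGAM1 are also annotated to PGAM4, and CA9 and SLC16A3 were not analysed here.

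Expression was measured on 6 Affymetrix arrays of Du145, a human prostate carcinoma line, in 3 groups of 2 arrays. The shTSC2-adapted cells are labelled as adapted from the knockdown cells, the shTSC2 cells received a lentivirus carrying a short hairpin RNA against TSC2, and the control cells are the comparison group. All 3 groups spent 24 h at 1% oxygen in medium rich in glucose with 10% serum, so no array of cells in normal oxygen enters any comparison and no value shows what hypoxia itself did. The labels give neither the nature of the adaptation nor whether control cells were infected nor whether the 2 arrays of a group came from separate cultures, and p-values measure only the spread between these arrays.

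TSC2 restrains mTORC1, a kinase complex that promotes the synthesis of HIF1A, among other growth programmes. HIF is a pair of an oxygen-regulated alpha subunit, HIF1A or EPAS1, and the constant partner ARNT. With oxygen at hand, the prolyl hydroxylases EGLN1, EGLN2 and EGLN3 mark the alpha subunits for VHL, which leads them to degradation, while HIF1AN adds a hydroxyl group that blocks coactivator binding. Low oxygen slows these enzymes, and the stable factor raises genes for blood vessel growth, matrix, mitophagy and glucose breakdown. Most of this control acts on the HIF proteins, which arrays of RNA do not measure.

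HIF binds the letters ACGTG or GCGTG. These were searched on both strands, where they read CACGT and CACGC, in RefSeq windows of 250 bases before a transcription start (GRCh38.p14). CACGTG holds a match on each strand and was counted on both. The table held windows for 41 of the 45 genes (not for BNIP3L, VEGFA, VHL and NDRG1), and at least 1 match stood in those of 34 (82.9%), against 12945 of 27305 genes in all (47.4%). By set the counts were 4 of 7 machinery genes (57.1%), 15 of 16 hypoxia targets (93.8%) and 15 of 18 glycolytic genes (83.3%). A gene with several starts has several windows and more chances of a match. Counted by window, 46 of 74 member windows (62.2%) and 15172 of 35116 windows in all (43.2%) held a match. A match of 5 letters is a description of the sequence and not a binding site. The windows of 5 genes that passed a test below, and of PGK1, a textbook HIF target that did not, are shown with the matches in capitals, each on the plus strand and ending at the base before the most upstream annotated start.
HIF1A: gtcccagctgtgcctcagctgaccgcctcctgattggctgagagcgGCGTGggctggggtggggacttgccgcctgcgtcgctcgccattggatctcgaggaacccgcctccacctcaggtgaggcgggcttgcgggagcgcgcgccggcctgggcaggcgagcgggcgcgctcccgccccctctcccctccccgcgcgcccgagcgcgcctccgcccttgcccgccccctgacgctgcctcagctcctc
ADM: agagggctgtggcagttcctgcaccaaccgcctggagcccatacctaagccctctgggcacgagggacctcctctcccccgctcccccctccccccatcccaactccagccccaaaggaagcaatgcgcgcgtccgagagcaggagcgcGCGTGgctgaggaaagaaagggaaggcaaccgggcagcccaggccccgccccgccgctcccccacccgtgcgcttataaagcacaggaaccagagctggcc
ANKRD37: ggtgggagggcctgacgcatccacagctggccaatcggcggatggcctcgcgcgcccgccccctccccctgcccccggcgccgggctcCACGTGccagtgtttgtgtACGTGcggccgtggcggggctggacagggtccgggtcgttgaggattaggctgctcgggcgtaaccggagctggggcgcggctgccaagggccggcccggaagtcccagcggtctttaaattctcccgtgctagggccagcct
KDM4B: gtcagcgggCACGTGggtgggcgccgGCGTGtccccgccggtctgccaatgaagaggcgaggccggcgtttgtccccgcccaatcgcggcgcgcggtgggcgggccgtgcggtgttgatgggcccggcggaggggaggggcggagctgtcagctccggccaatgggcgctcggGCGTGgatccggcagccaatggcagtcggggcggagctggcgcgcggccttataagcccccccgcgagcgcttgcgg
LDHA: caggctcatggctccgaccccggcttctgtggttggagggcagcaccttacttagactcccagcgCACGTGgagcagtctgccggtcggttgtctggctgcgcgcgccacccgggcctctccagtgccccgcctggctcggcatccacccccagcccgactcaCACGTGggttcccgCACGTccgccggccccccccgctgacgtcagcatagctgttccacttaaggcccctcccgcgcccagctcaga
PGK1: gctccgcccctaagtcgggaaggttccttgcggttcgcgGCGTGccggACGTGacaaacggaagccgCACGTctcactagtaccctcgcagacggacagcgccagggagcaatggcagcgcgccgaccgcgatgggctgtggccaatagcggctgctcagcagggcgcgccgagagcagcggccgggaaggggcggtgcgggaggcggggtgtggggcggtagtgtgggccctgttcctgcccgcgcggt
They lie at chr14:61695263-61695512 (HIF1A), chr11:10304823-10305072 (ADM), chr4:185396591-185396840 (ANKRD37), chr19:4968863-4969112 (KDM4B), chr11:18394313-18394562 (LDHA) and chrX:78103998-78104247 (PGK1). LDHA held 5 matches, with CACGTG beginning 185 and 87 bases before the start and CACGT 73 bases before it. KDM4B held 4, ANKRD37 and PGK1 3 each, and HIF1A and ADM 1 each. In shTSC2 cells KDM4B and LDHA fell, with 4 and 5 matches, HIF1A fell with 1 and ADM rose with 1. HIF1AN, which also fell, held 0 matches in its window.

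TSC2 itself had log2 intensities of 6.54 and 6.48 in shTSC2-adapted, 6.67 and 6.55 in shTSC2 and 7.52 and 7.59 in control cells. It stood at 51.9% of the control level in shTSC2 (95% interval 44.4% to 60.8%) and at 48.5% in shTSC2-adapted cells (41.4% to 56.7%). The epithelial keratins KRT8 and KRT18 were bright in all groups (mean 11.38 and 11.40), while KRT19 and EPCAM fell in shTSC2 against control (-1.38 and -1.28, limma adjusted p = 0.00664 and 0.0271). In shTSC2-adapted against shTSC2, KRT19, EPCAM and CDH1 rose (1.55, 1.64 and 1.54, adjusted p = 0.00772, 0.0173 and 0.00756). The prostate marker KLK3 was dim (5.14), and the fibroblast genes DCN and LUM and the leukocyte genes PTPRC and LYZ were near the floor (3.40 to 3.55). The other markers measured were higher. The fibroblast genes COL1A1, COL3A1, COL1A2 and PDGFRB had means of 6.72, 6.20, 5.99 and 5.62. The leukocyte genes CD14 and CD3E had 5.88 and 4.89. Of 6 embryonic kidney markers PAX2 and NEFM rose in shTSC2 against control (0.48 and 0.99, limma adjusted p = 0.0121 and 0.0130). SIX2, EYA1, LHX1 and WT1 differed by 0.04, -0.045, 0.065 and -0.18 there and did not pass. The summed intensity of the 6 was 496 to 562 in shTSC2-adapted, 505 to 568 in shTSC2 and 471 in both control arrays. The part of these shifts in the results that follow was not tested. Values with a trend on gene length taken out are given where they end a call.

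In shTSC2 against control cells, few of the HIF and glycolysis genes changed, and 4 of the 5 that did were lower. HIF1A, HIF1AN, KDM4B and LDHA fell and ADM rose, which is 5 of 41 (12.2%), against 20.8% of all genes tested and 32.7% of genes at or above the median level, where 39 of the 41 members lie. Of all genes 6.87% rose and 13.9% fell. At an unadjusted p under 0.05 there were 11 of 41 members, against 6129 of all 18417 genes. None of the 41 changed 2-fold, against 3.93% of all genes. Their median change was -0.05 and their median absolute change 0.19, against 0.18 over all genes and 0.28 over the brighter ones. The arrays of the groups did not overlap for 25 of the 41 (61.0%), against 62.0% of all genes. Fewer members passed when either control array was left out, and fewer of all genes passed as well.

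**Figure D1:**
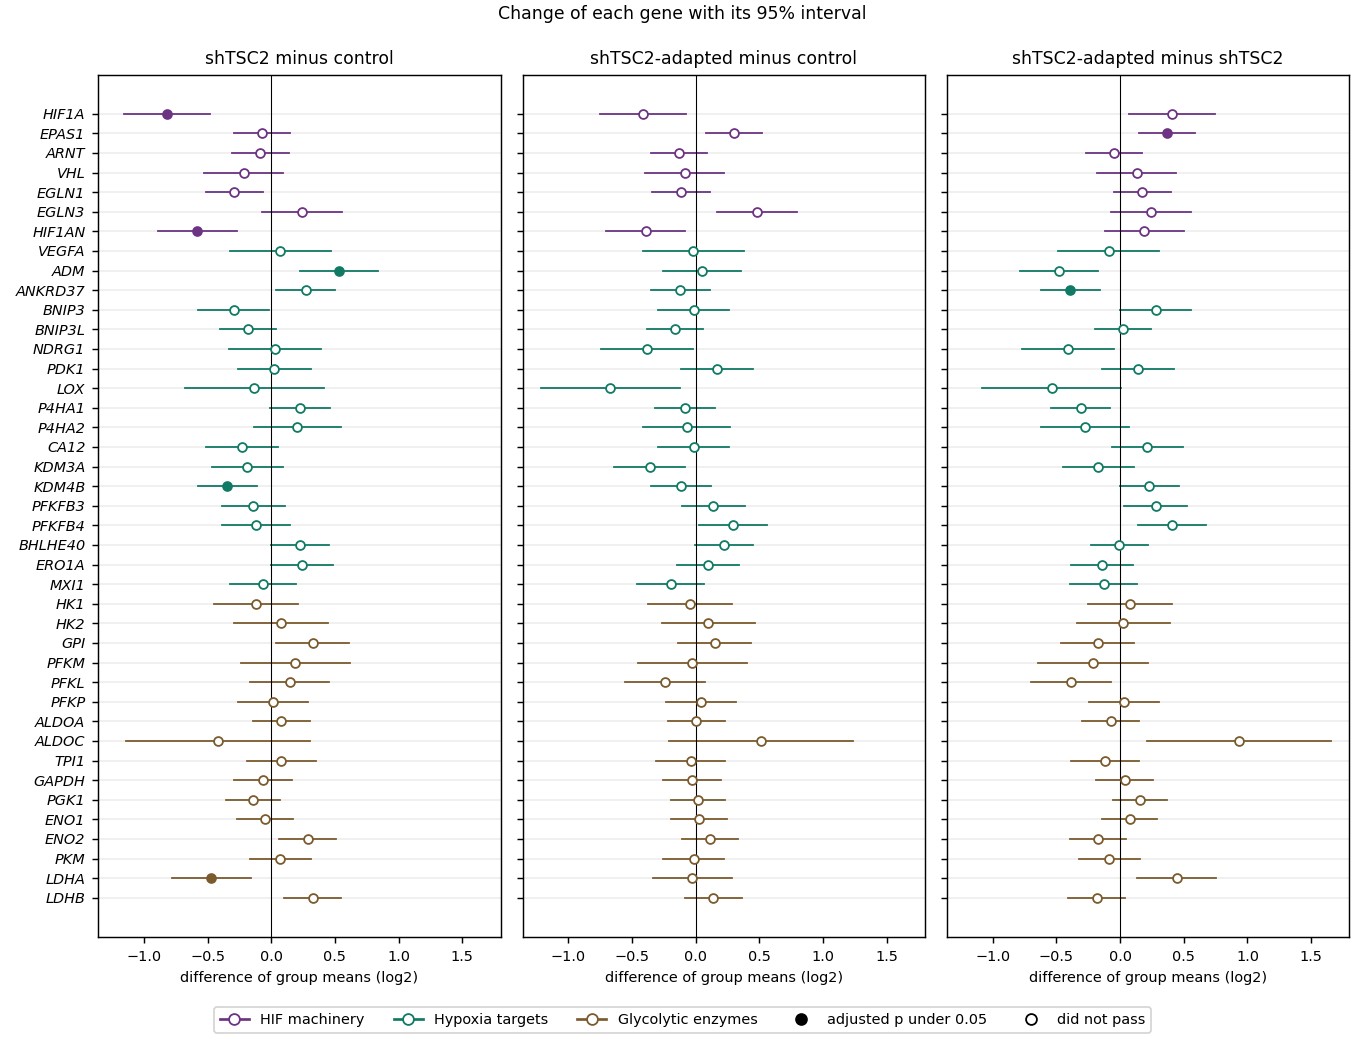
Difference of group means on the log2 scale for each of the 41 measured genes, with its 95% interval from limma, in the 3 comparisons; filled points passed an adjusted p of 0.05. In shTSC2 minus control 5 points are filled, in shTSC2-adapted minus control 0, and in shTSC2-adapted minus shTSC2 2.

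Of the 7 machinery genes measured, 0 rose and 2 fell in shTSC2 against control. This is 28.6%, against 20.8% of all genes and 32.7% of those at or above the median level. The arrays did not overlap for 7 of the 7 (100%), 1 higher and 6 lower, against 62.0% and 73.2%. Their median change was -0.215. HIF1A, the oxygen-regulated alpha subunit, had 8.78 and 8.81 in shTSC2-adapted, 8.18 and 8.60 in shTSC2 and 9.15 and 9.27 in control cells. The 3 groups did not overlap, with shTSC2 lowest and shTSC2-adapted in between. HIF1A fell by 0.82 in shTSC2 against control (SE 0.14, limma adjusted p = 0.00732), to 56.6% of the control level (95% interval 44.8% to 71.5%). Without control 2 the adjusted p was 0.0798, and over all alternatives it lay between 0.00186 and 0.0798.

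HIF1AN, the asparagine hydroxylase that restrains HIF, had 8.16 and 8.42 in shTSC2-adapted, 8.17 and 8.03 in shTSC2 and 8.56 and 8.80 in control cells. Both shTSC2 arrays lay below both controls, and 1 of the shTSC2-adapted arrays lay within the range of the shTSC2 arrays. HIF1AN fell by 0.58 in shTSC2 against control (SE 0.13, limma adjusted p = 0.0203), to 66.9% of the control level (54.0% to 82.9%). The call ended without control 1 (0.0573), control 2 (0.171) or shTSC2 2 (0.0655).

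The other alpha subunit, EPAS1, had 7.10 and 7.08 in shTSC2-adapted, 6.72 on both shTSC2 arrays and 6.73 and 6.85 in control cells. The shTSC2-adapted arrays were the highest, and the shTSC2 arrays lay just under the control arrays. EPAS1 did not pass in shTSC2 against control (-0.07, adjusted p = 0.655). The gap between the 2 alpha subunits on an array, HIF1A minus EPAS1, was 1.68 and 1.73 in shTSC2-adapted, 1.46 and 1.88 in shTSC2 and 2.42 on both control arrays. It was smaller in shTSC2 than in control by 0.75 and in shTSC2-adapted than in control by 0.72. Each had an exact two-sided permutation p of 0.333, the smallest that 2 arrays against 2 allow, so this test cannot decide whether the gap differed.

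The remaining machinery genes did not pass in this comparison. EGLN1, the main prolyl hydroxylase, had 8.72 and 8.79 in shTSC2-adapted, 8.53 and 8.63 in shTSC2 and 8.83 and 8.91 in control cells, a difference of -0.29 in shTSC2 (adjusted p = 0.0739). EGLN3, a prolyl hydroxylase that is itself a HIF target, had 8.17 and 7.85 in shTSC2-adapted, 7.73 and 7.80 in shTSC2 and 7.63 and 7.42 in control cells. Control was lowest, so EGLN3 differed from control in the opposite direction to EGLN1 (0.24 in shTSC2, limma adjusted p = 0.261, and 0.48 in shTSC2-adapted, 0.187). Between shTSC2 and shTSC2-adapted both genes went the same way, higher in shTSC2-adapted by 0.175 (EGLN1) and 0.245 (EGLN3), and neither passed. ARNT (-0.08) and VHL (-0.22) lay close to control.

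**Figure D2:**
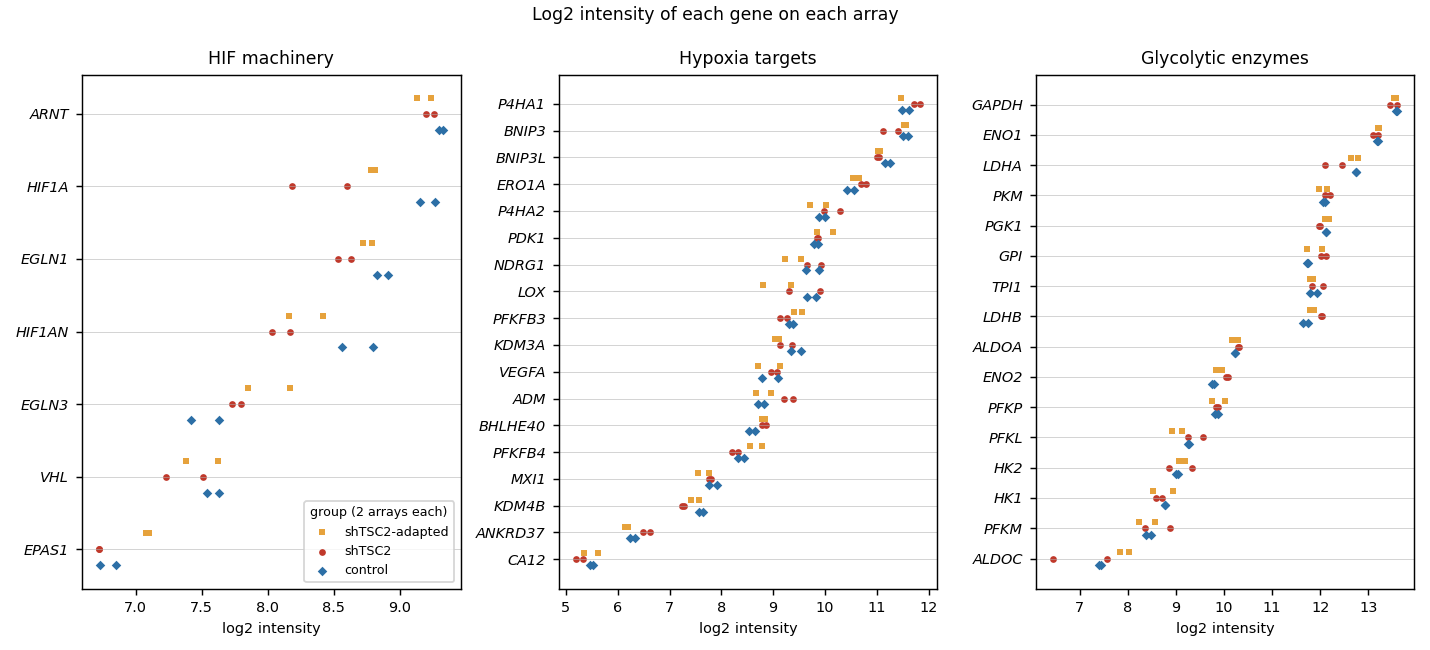
Log2 intensity of each of the 41 genes on each of the 6 arrays, in 3 panels for the machinery, the targets and the glycolytic enzymes, with a mark per array and group. The shTSC2 and control arrays do not overlap for 25 of the 41 genes (61.0%, against 62.0% of all genes measured). The largest differences between these groups are those of HIF1A, HIF1AN, ADM and LDHA.

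Of the 18 hypoxia targets measured, 1 rose and 1 fell in shTSC2 against control (11.1%, against 20.8% of all genes). ADM, the vasodilator peptide adrenomedullin, had 8.67 and 8.96 in shTSC2-adapted, 9.39 and 9.20 in shTSC2 and 8.83 and 8.70 in control cells. Both shTSC2 arrays lay above every other array, and the shTSC2-adapted arrays overlapped control. ADM rose by 0.53 in shTSC2 against control (SE 0.13, limma adjusted p = 0.0272), to 144% of the control level. The call ended without control 1 (0.106), control 2 (0.194) or shTSC2 1 (0.0846), and after the trend on gene length was taken out (0.42, 0.0531).

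KDM4B, a histone lysine demethylase, had 7.41 and 7.56 in shTSC2-adapted, 7.23 and 7.28 in shTSC2 and 7.56 and 7.64 in control cells. The shTSC2 arrays were lowest, and one shTSC2-adapted array equalled the lower control array. KDM4B fell by 0.34 in shTSC2 against control (SE 0.10, limma adjusted p = 0.0474), to 78.7% of the control level. It spans 184 kb, and after the trend on gene length was taken out the difference was -0.17 (adjusted p = 0.286). It also failed with quantile normalization, median centring, the 4 arrays alone, the robust prior, the replicate block and any 1 array left out.

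The other 16 targets lay between -0.30 and 0.27 and did not pass. ANKRD37, an ankyrin repeat protein strongly induced by HIF, had 6.14 and 6.19 in shTSC2-adapted, 6.48 and 6.63 in shTSC2 and 6.24 and 6.33 in control cells, a difference of 0.27 in shTSC2 against control (adjusted p = 0.103). BNIP3, a mitophagy receptor, had 11.57 and 11.52 in shTSC2-adapted, 11.12 and 11.41 in shTSC2 and 11.51 and 11.61 in control cells. Both shTSC2 arrays were below both controls, by -0.30 on average (adjusted p = 0.132), and without shTSC2 2 BNIP3 passed (0.0323).

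VEGFA, the vascular growth factor most often used as a HIF readout, had 9.14 and 8.70 in shTSC2-adapted, 9.07 and 8.95 in shTSC2 and 8.78 and 9.10 in control cells, and the 3 groups overlapped (0.07). PDK1, the kinase that holds back pyruvate dehydrogenase, had 9.85 and 9.86 in shTSC2 and 9.79 and 9.87 in control cells. The collagen prolyl hydroxylase subunits P4HA1 and P4HA2 differed by 0.22 and 0.20 in shTSC2 and did not pass, P4HA1 passing at 0.35 once the trend on gene length was taken out (adjusted p = 0.0455).

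The oxidase ERO1A of the endoplasmic reticulum (0.24) and the transcriptional repressor BHLHE40 (0.22) had both shTSC2 arrays above both controls. The mitophagy receptor BNIP3L (-0.18) and the carbonic anhydrase CA12 (-0.23) had both below. NDRG1, a stress-induced gene, the histone demethylase KDM3A, PFKFB3, PFKFB4, LOX and the MYC antagonist MXI1 lay between -0.19 and 0.03 in shTSC2 against control.

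Of the glycolytic enzymes 1 of 16 passed in shTSC2 against control (6.25%, against 20.8% of all genes). Their median change was 0.07 and their median absolute change 0.13, against 0.20 for the hypoxia targets and 0.24 for the machinery. LDHA, the lactate dehydrogenase subunit that favours lactate formation, had 12.65 and 12.78 in shTSC2-adapted, 12.09 and 12.45 in shTSC2 and 12.74 on both control arrays. The shTSC2 arrays were lowest and the other groups overlapped. LDHA fell by 0.47 in shTSC2 against control (SE 0.13, limma adjusted p = 0.0444), to 72.2% of the control level (58.2% to 89.6%). The call ended with the 4 arrays alone. It also ended without control 1, control 2, shTSC2 1 (-0.29) or either shTSC2-adapted array.

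LDHB, the subunit that favours the reverse reaction, had 11.88 and 11.79 in shTSC2-adapted, 12.03 and 12.01 in shTSC2 and 11.75 and 11.64 in control cells. Its arrays ran opposite to LDHA, with shTSC2 highest, and the difference of 0.32 (SE 0.10) had a limma adjusted p of 0.0508. LDHB passed with dim genes left out (0.0497) and with the intensity trend and robust prior (0.0340). The gap LDHA minus LDHB on an array was 0.77 and 0.99 in shTSC2-adapted, 0.06 and 0.44 in shTSC2 and 0.99 and 1.10 in control cells. It was smaller in shTSC2 than in control by 0.80. The exact two-sided permutation p was 0.333, the smallest the design allows, so this test cannot decide whether the gap differed.

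**Figure D3:**
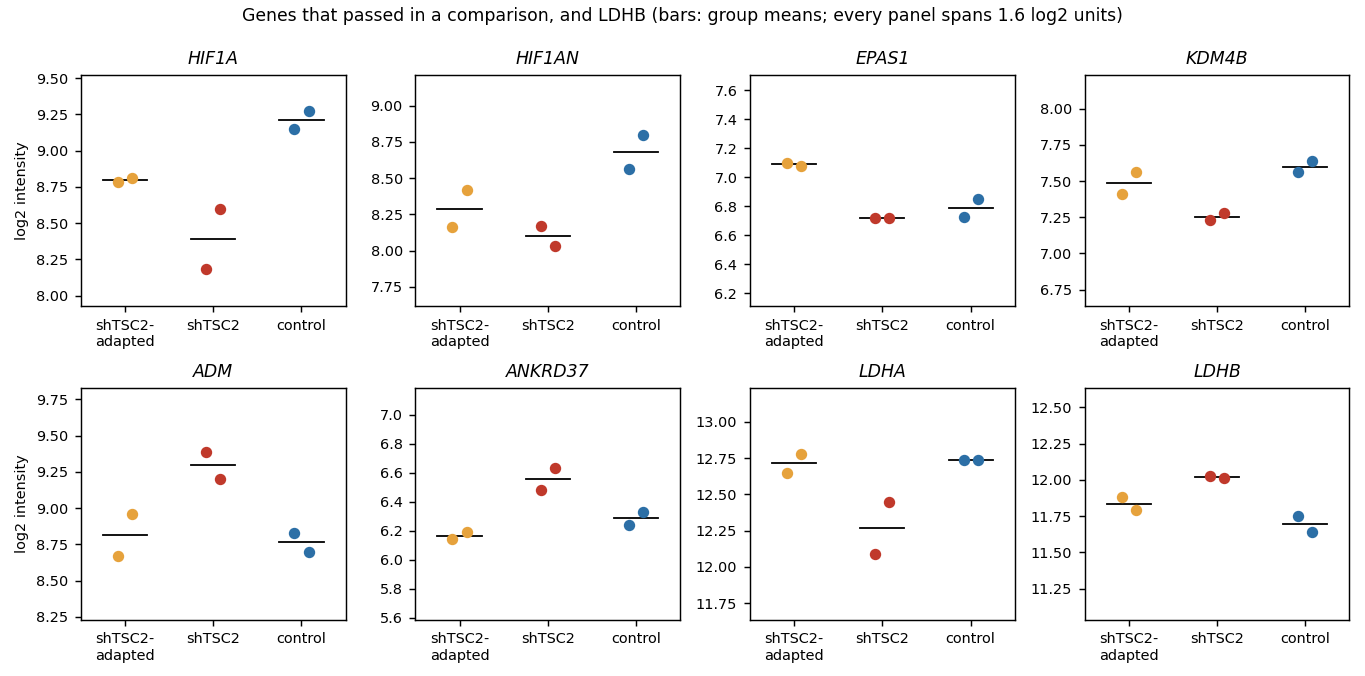
Log2 intensity on each array (points) and group means (bars) of the 7 genes that passed in a comparison and of LDHB, in panels that each span 1.6 log2 units. For LDHA the shTSC2 arrays lie at 12.09 and 12.45, below all others, and for LDHB at 12.03 and 12.01, above all others.

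Of the 14 enzymes between glucose and pyruvate 0 passed in shTSC2 against control by limma, against 20.8% of all genes. At an unadjusted p under 0.05 there were 2 of the 14, against 6129 of all 18417 genes. With shTSC2 1 left out the ALDOC difference was -0.98. GAPDH had 13.54 and 13.58 in shTSC2-adapted, 13.60 and 13.45 in shTSC2 and 13.58 and 13.60 in control cells, and its shTSC2 minus control interval ran from -0.29 to 0.16. PGK1, which forms the first ATP of the pathway, had 12.10 and 12.18 in shTSC2-adapted, 11.99 and 11.98 in shTSC2 and 12.12 and 12.13 in control cells. Its shTSC2 arrays were lowest, by -0.14 (adjusted p = 0.331).

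GPI, which converts glucose phosphate to fructose phosphate, differed by 0.32 in shTSC2 (adjusted p = 0.108), and ENO2, the neuronal enolase, by 0.28 (adjusted p = 0.0742). Neither passed, although both shTSC2 arrays of each gene lay above both controls. The hexokinases HK1 and HK2, the phosphofructokinases PFKM, PFKL and PFKP, the aldolase ALDOA, TPI1, ENO1 and the pyruvate kinase PKM lay between -0.12 and 0.19. The second probe set of TPI1 gave 0.16 (adjusted p = 0.436).

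ALDOC, a brain-type aldolase, had the widest gap between 2 arrays of a group among the members. It had 7.84 and 8.03 in shTSC2-adapted, 7.56 and 6.44 in shTSC2 and 7.40 and 7.44 in control cells. The shTSC2 arrays stood 1.12 apart and lay on either side of control, against a median gap of 0.12 between the shTSC2 arrays over the members. The difference of -0.42 did not pass (95% interval -1.14 to 0.30, adjusted p = 0.392), and without shTSC2 1 it was -0.98 (0.00315).

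For 23 of the 41 members the 95% interval of the shTSC2 minus control difference lay wholly within 0.5 log2 units of zero. This is 56.1%, against 55.1% of all genes and 38.2% of those at or above the median level. The intervals bound the differences in array intensity of those members. The other 18 had wider intervals or larger differences, and a p above the threshold does not show that they were alike.

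In shTSC2-adapted against control, a comparison that shares the control arrays with the one before, 0 of 41 members passed by limma, against 0.261% of all genes and 0.391% of those at or above the median level. At an unadjusted p under 0.05 there were 8 of 41 members, against 2317 of all 18417 genes. By adjusted p, 0 members passed under any alternative tried. The median change was -0.02 and the median absolute change 0.12, against 0.10 over all genes, and arrays did not overlap for 22 of 41 (53.7%), against 45.9%. The interval lay within 0.5 of zero for 31 members (75.6%, against 73.4% of all genes and 63.3% of those at or above the median level). HIF1A stood at -0.42 (adjusted p = 0.294) and HIF1AN at -0.39 (0.283), while the shTSC2 minus control differences of the same genes were -0.82 and -0.58.

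LOX, the enzyme that crosslinks collagen, had the lowest difference of the members, with 8.80 and 9.34 in shTSC2-adapted, 9.91 and 9.30 in shTSC2 and 9.66 and 9.82 in control cells. Both shTSC2-adapted arrays lay below both controls, by -0.67 (adjusted p = 0.295), and the shTSC2 arrays lay on either side of the controls. NDRG1 had 9.54 and 9.22 in shTSC2-adapted, 9.93 and 9.65 in shTSC2 and 9.64 and 9.88 in control cells, its shTSC2-adapted arrays being lowest (-0.38 against control). Among glycolytic enzymes the median absolute change was 0.04, with 0 of 16 at an unadjusted p under 0.05. LDHA differed by -0.02 (adjusted p = 0.974), and ALDOC by 0.52 (0.576).

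In shTSC2-adapted against shTSC2 cells, which shares the shTSC2 arrays with the first comparison and the shTSC2-adapted arrays with the second, EPAS1 rose and ANKRD37 fell. These are 2 of 41 members (4.88%), against 12.5% of all genes and 20.0% of the brighter ones. At an unadjusted p under 0.05 there were 12 members, against 4981 of all 18417 genes. Of all genes 9.25% rose and 3.24% fell, and arrays did not overlap for 23 of the members (56.1%), against 52.1% of all genes. EPAS1, whose arrays are given above, rose by 0.37 (SE 0.09, limma adjusted p = 0.0429), to 129% of the shTSC2 level. ANKRD37 fell by 0.39 (SE 0.10, limma adjusted p = 0.0449), to 76.3% of the shTSC2 level. Both calls were borderline: the EPAS1 adjusted p reached 0.156 and that of ANKRD37 0.175, and each failed without control 1, control 2, shTSC2 2 or either shTSC2-adapted array, EPAS1 also without shTSC2 1. Both also failed with quantile normalization, median centring, the 4 arrays alone, the robust prior and the replicate block (EPAS1 0.0687, ANKRD37 0.0552). With the trend on gene length taken out EPAS1 stood at 0.27 (0.116) and ANKRD37 at -0.29 (0.121).

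Of the genes that passed against control, HIF1A differed by 0.40 between shTSC2-adapted and shTSC2 (adjusted p = 0.119), LDHA by 0.44 (0.0731), ADM by -0.48 (0.0544) and HIF1AN by 0.19 (0.413). HIF1A and LDHA passed when shTSC2 2 was left out (0.0160 and 0.0156). ADM passed with quantile normalization (0.0385), with dim genes left out (0.0372) and without shTSC2 2. PFKFB4, which makes the activator of phosphofructokinase, had 8.56 and 8.79 in shTSC2-adapted and 8.21 and 8.32 in shTSC2 cells (0.41, adjusted p = 0.0582). ALDOC differed by 0.94 (0.0971).

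Genes outside the 45 were set beside them as 5 further lists of 114 genes, 103 of them measured. The lists, like the members, were chosen with earlier results of these data known. Their shares of passing genes therefore describe the lists and do not test whether one list changed more than another. Of 18 further HIF regulators, 0 rose and 3 fell in shTSC2 against control (16.7%, against 20.8% of all genes and 32.7% of those at or above the median level). CUL2, the scaffold of the VHL ubiquitin ligase, had 7.81 and 7.98 in shTSC2-adapted, 7.20 and 7.32 in shTSC2 and 8.11 and 8.07 in control cells. It fell by 0.83 (adjusted p = 0.00201) and rose in shTSC2-adapted against shTSC2 by 0.64 (0.00989), the rise failing without shTSC2-adapted 2 (0.0540). The HIF coactivators CREBBP and EP300 fell by 0.70 and 0.51 (adjusted p = 0.00609 and 0.0402). Without a control array CREBBP did not pass (up to 0.0611), and EP300 failed under 8 of the alternatives (up to 0.200), one of them the removal of the trend on gene length (-0.39, 0.0906). Fewer of the 3 passed when either control array was left out, as over all genes.

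Of 41 further hypoxia targets, 5 rose and 9 fell in shTSC2 against control, which is 34.1%. The share was 12.2% of the 41 members and 20.8% of all genes. It was 32.7% of genes at or above the median level, where 35 of these targets lie. The differences between these shares were not tested. SLC2A3 (2.60, adjusted p = 0.000793), IGFBP3 (1.50, 0.000812) and CXCR4 (1.41, 0.00102) rose. INSIG2 (-1.42, 0.000726), SLC2A1 (-1.34, 0.000504) and VLDLR (-1.23, 0.00111) fell, and all 6 passed under every alternative tried. Fewer of these targets passed when either control array was left out, as over all genes. The glucose transporter SLC2A3 was also the one gene of these lists to rise in shTSC2-adapted against control (3.56, 0.0190), and it failed there without any 1 control or shTSC2-adapted array (up to 0.372).

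In shTSC2-adapted against shTSC2, 8 further targets rose and 4 fell (29.3%, against 12.5% of all genes and 20.0% of those at or above the median level). DDIT4, an inhibitor of mTORC1 signalling, had 9.88 and 9.25 in shTSC2-adapted and 7.88 and 7.68 in shTSC2 cells (1.78, adjusted p = 0.00288). INSIG2 rose by 1.08 (0.00371) and STC1, a secreted hormone, by 1.04 (0.0185), STC1 failing when a control or shTSC2-adapted array was left out (up to 0.0983). CXCR4 (-1.76, 0.00121), IGFBP3 (-1.30, 0.00308) and MAFF (-0.82, 0.00395) fell.

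**Figure D4:**
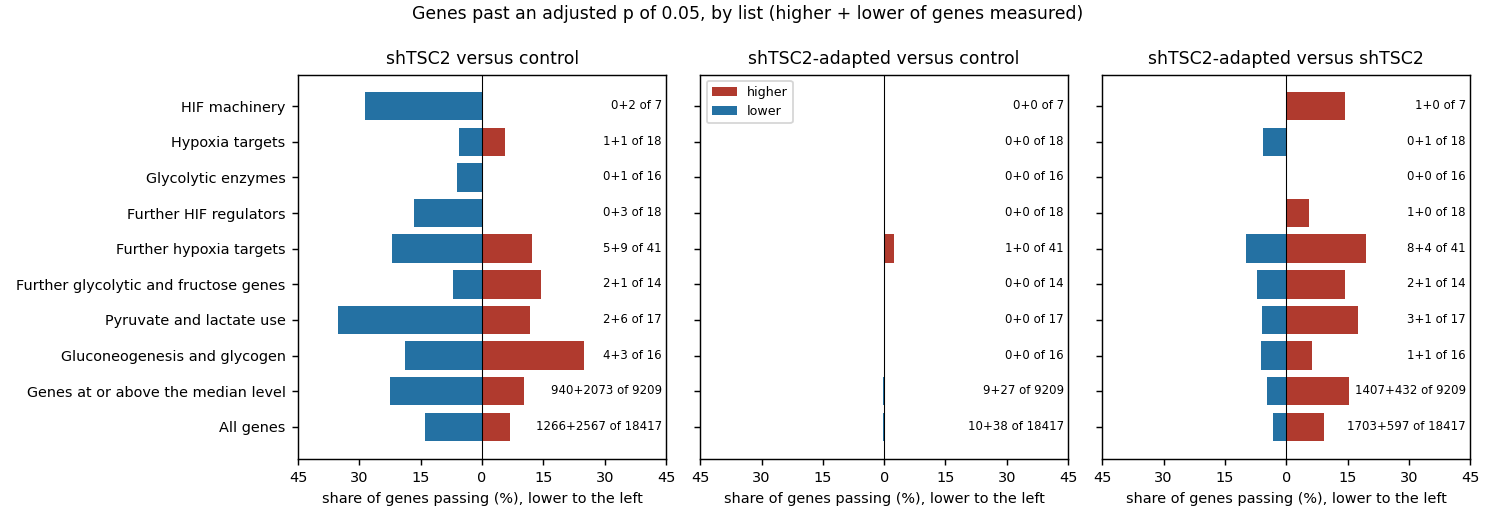
Share of the measured genes of each list that passed an adjusted p of 0.05, higher to the right and lower to the left, in the 3 comparisons, with the counts at the right edge. In shTSC2 versus control 34.1% of the further hypoxia targets and 47.1% of the pyruvate and lactate genes (8 genes) passed. The share was 12.2% of the 41 measured members, 20.8% of all genes and 32.7% of genes at or above the median level. Fewer pyruvate and lactate genes, and fewer of all genes, passed when a control array was left out. The lists were chosen with earlier results of these data known, so the shares do not test one list against another.

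Of 17 genes of pyruvate and lactate use, 2 rose and 6 fell in shTSC2 against control (47.1%). The share was 20.8% of all genes and 32.7% of those at or above the median level, and the differences were not tested. Fewer of the 17 passed when either control array was left out, as over all genes. ACLY, which makes cytosolic acetyl-CoA from citrate, fell by 1.51 (adjusted p = 0.00126), and the pyruvate dehydrogenase kinases PDK4 and PDK2 fell by 1.13 and 0.96 (0.00703 and 0.0379). PDHA1, a pyruvate dehydrogenase subunit, rose by 0.66 (0.00648), and MPC2, of the mitochondrial pyruvate carrier, by 0.48 (0.0200). PDHB, the partner subunit of PDHA1, fell by 0.74 (0.00258), and PDP1, the phosphatase that opposes the kinases, by 0.59 (0.0225), both named after their values were seen. ACLY passed under every alternative; PDK4 failed without control 2 (0.0644), PDHA1 without either control (up to 0.0741), MPC2 without control 2 or shTSC2 1 (up to 0.174) and PDK2 under 7 settings (up to 0.198).

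ACLY rose in shTSC2-adapted against shTSC2 (1.62, 0.00252), and there PDP1 (0.62, 0.0277) and DLD (0.40, 0.0369) rose and PDHA1 fell (-0.46, 0.0389). The last 3 failed with the 4 arrays alone and when single arrays were left out (up to 0.0967, 0.141 and 0.173).

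Of 14 further glycolytic and fructose genes 21.4% passed in shTSC2 against control, against 20.8% of all genes. Fewer of the 14 passed when either control array was left out, as over all genes. The muscle enolase ENO3 (1.31, 0.00108) and PFKFB2 (0.66, 0.0262) rose, and HKDC1 fell (-0.78, 0.0256). PFKFB2 failed without control 1, control 2 or shTSC2 1 (up to 0.166), and HKDC1 without control 1 or shTSC2 1 (up to 0.163). In shTSC2-adapted against shTSC2, KHK (0.54, limma adjusted p = 0.0323) and TIGAR (0.40, 0.0317) rose and ENO3 fell (-0.56, 0.0363). KHK and TIGAR failed with the 4 arrays alone, and TIGAR also with quantile normalization, the robust prior and the replicate block. Each of the 3 failed when single arrays were left out, among them either shTSC2-adapted array. Over all alternatives the differences were 0.40 to 0.68 (KHK), 0.35 to 0.445 (TIGAR) and -0.63 to -0.48 (ENO3). In that comparison ENO3 stood at -0.48 (0.0711) with the trend on gene length taken out.

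Of 16 genes of gluconeogenesis and glycogen, 4 rose and 3 fell in shTSC2 against control (43.8%). The share was 20.8% of all genes and 32.7% of those at or above the median level, and the differences were not tested. Fewer of the 16 passed when either control array was left out, as over all genes. SLC37A4 (0.60, 0.0456), G6PC3 (0.52, 0.0463) and PYGM (0.46, 0.0143) rose, and FBP1 (-0.64, 0.00417), PGM1 (-0.48, 0.0231) and GBE1 (-0.36, 0.0349) fell. FBP1, a gluconeogenic phosphatase, kept its call under every alternative, and the other 5 failed when either control array was left out. PYGM also failed with quantile normalization and median centring, G6PC3 with median centring and GBE1 with quantile normalization. With the 4 arrays alone and with the replicate block, SLC37A4, G6PC3 and GBE1 failed. SLC37A4 (0.49, 0.0724), G6PC3 (0.42, 0.0805) and GBE1 (-0.20, 0.197) also failed with the trend on gene length taken out. In shTSC2-adapted against shTSC2, FBP1 rose by 1.26 (0.00111), and G6PC3 fell by 0.72 (0.0228; up to 0.128 without single arrays).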

How the data were processed

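Biotin-labelled RNA of 6 Du145 samples was hybridised, 1 array each. The deposited values are probe set intensities on a linear scale that the authors had put through RMA normalization, per the submitters' processing notes (version not given in the sources used here). This step equalises the arrays, so a shift shared by most genes is partly removed. The log2 of each deposited intensity lay within 6.99e-10 of a 2-decimal number, so the analysis ran on log2 values. There is no read depth, and the number of arrays limits precision. Of 33297 probe sets 19460 carry 1 gene symbol, 1754 several and 12083 none here. The highest-mean set was kept per gene, giving 18417 genes, with gene spans and names from RefSeq GRCh38.p14.

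Group means over the 6 arrays were estimated by limma 3.58.1 (R 4.3.3; eBayes defaults, 3 residual degrees of freedom), with two-sided p-values adjusted by Benjamini-Hochberg over 18417 genes at 0.05. Tables and figures used pandas 2.3.3, scipy 1.17.1 and matplotlib 3.10.9. Named genes are the 45 members, TSC2, and from each further list the 3 largest rises and falls among genes that passed. The members and lists were chosen with earlier results of these data known. Alternatives were quantile normalization, median centring, dropping genes below the median level, averaging or separately testing probe sets, fitting only the 4 arrays compared, an intensity trend with robust prior, a replicate block, removing a gene length trend (lowess, fraction 0.3), and leaving out each array. The model was tested on simulated data for shTSC2 versus control, with 200 of 18417 genes changed in 5 draws. It recovered 9.6%, 81.8% and 99.4% of log2 changes of 0.5, 1 and 2, with 4.6% false calls. In the data themselves 3833 genes passed, and the Benjamini-Hochberg cut-off depends on the share of genes changed. The simulated shares therefore do not give the recovery in the data themselves.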

Additional observations from a re-analysis of the deposited data

How the results depend on the processing

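In shTSC2 versus control, 5 members passed, and 4 with quantile normalization, median centring, the replicate block or the gene length trend removed, 6 with dim genes left out and 3 with the 4 arrays alone (0 to 4 with 1 array left out). All genes passing were 3833, 1266 higher and 2567 lower, or 868 and 2962 with median centring (1175 to 3895 with 1 array left out). In shTSC2-adapted versus control 0 members passed under every alternative. The genes passing there were 48, against 94 with quantile normalization, 199 with median centring, 121 with dim genes left out, 248 with the 4 arrays alone and 1 with the replicate block (0 to 248 with 1 array left out, and 0 without any 1 control or shTSC2-adapted array). In shTSC2-adapted versus shTSC2, 2 members passed (EPAS1 and ANKRD37). Neither passed with quantile normalization, median centring, the robust prior, the replicate block or the gene length trend removed, where 1 other member did (ADM, ALDOC, LDHA, PFKFB4 and P4HA1, in that order). The count was 4 with dim genes left out and 0 with the 4 arrays alone (0 to 6 with 1 array left out). The 2300 genes passing there fell to 1113 with the 4 arrays alone (837 to 2600 with 1 array left out). The causes of these shifts were not tested, beyond the smaller number of arrays where arrays were dropped. The 7 member calls were recomputed 104 times, and 55 of these kept the call and 49 lost it. Over all 1839 recomputed member changes, most of them never called, 20 gained a call and 0 reversed. Over all genes, deviations of arrays with the same number gave Pearson r = -0.10 for control and shTSC2 and -0.19 for control and shTSC2-adapted. For shTSC2 and shTSC2-adapted r was 0.21. These values cannot show whether arrays with the same number were paired, and the labels do not say. A crossed replicate block, added after seeing the data, gave 4, 0 and 4 members and 4212, 148 and 2732 genes in the 3 comparisons.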
